A study of Mus musculus with 10 samples.

Results

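The IL-1 family cytokine genes and their regulators were followed in colon tissue of mice with colitis. The set was named as 10 genes and matched by the gene symbols of the array platform, with 1 probe set per gene, and 9 of the 10 were measured among 19505 genes in all. They are the agonist genes Il1a, Il1b, Il18, Il33, Il36a and Il36g, the receptor gene Il1r1, and the genes of 2 inhibitors, Il1rn and Il18bp. Il36a and Il36g stand on the platform under their older symbols Il1f6 and Il1f9. Il1rl1, the gene of the IL-33 receptor, had no named probe set here and was not analysed. Complete colon tissue of wild-type C57BL/6 mice was used, and every mouse had received 3% dextran sulfate sodium (DSS), a polysaccharide that injures the colonic epithelium, in the drinking water and an antibody against the checkpoint receptor PD1. In the 5 ECP samples the mice had also been given donor cells treated by ECP (extracorporeal photopheresis, exposure of leukocytes to a photosensitiser and ultraviolet A light), and the 5 control samples came from mice given DSS and anti-PD1 without these cells. The labels give neither the age nor the sex of the mice nor the dose of donor cells, and no samples without colitis or with untreated donor cells were analysed here.

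IL-1 family cytokines are alarm signals of barrier tissues. IL-1 alpha and IL-1 beta act through the same receptor, which recruits the adaptor MyD88 and switches on NF-kB target genes, and IL-18, IL-33 and the IL-36 cytokines use related receptors. The family is held in check at the ligand and receptor level: the antagonist encoded by Il1rn occupies the IL-1 receptor without signalling, the protein of Il18bp captures IL-18, and the protein of Il1r2 is a decoy that binds IL-1. In the intestine IL-1 beta comes largely from myeloid cells, IL-18 largely from epithelial cells, and IL-33 from stromal and other structural cells.

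Il1a and Il1b are neighbours on mouse chromosome 2, and Il1rn lies farther away on the same chromosome. The RefSeq promoter windows of these 3 genes (build GRCm38.p6, 250 bases before to 50 after a start site) are shown because the results turn on these genes: Il1a and Il1b varied together between arrays, and the difference between the groups was 0.83 for Il1a, 0.62 for Il1b and -0.07 for Il1rn. Capitals mark matches to the searched motifs.
Il1a, chr2:129309923-129310222, minus strand: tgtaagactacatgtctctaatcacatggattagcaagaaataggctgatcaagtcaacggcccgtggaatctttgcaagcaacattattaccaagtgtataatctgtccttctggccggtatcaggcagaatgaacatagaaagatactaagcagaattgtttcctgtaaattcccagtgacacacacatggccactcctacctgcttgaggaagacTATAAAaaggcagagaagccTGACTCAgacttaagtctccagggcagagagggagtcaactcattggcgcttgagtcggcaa
Il1b, chr2:129371090-129371389, minus strand: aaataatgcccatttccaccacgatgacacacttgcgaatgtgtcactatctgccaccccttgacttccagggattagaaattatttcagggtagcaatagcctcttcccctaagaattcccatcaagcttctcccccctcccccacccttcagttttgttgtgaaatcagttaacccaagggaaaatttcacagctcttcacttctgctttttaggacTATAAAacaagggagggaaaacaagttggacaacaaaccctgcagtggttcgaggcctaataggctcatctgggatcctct
Il1rn, chr2:24336610-24336909, plus strand: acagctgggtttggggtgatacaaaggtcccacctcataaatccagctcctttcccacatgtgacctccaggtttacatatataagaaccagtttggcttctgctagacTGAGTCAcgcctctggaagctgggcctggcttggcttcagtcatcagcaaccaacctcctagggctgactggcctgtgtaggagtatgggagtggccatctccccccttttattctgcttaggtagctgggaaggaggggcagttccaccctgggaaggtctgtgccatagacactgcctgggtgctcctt
The TATA box TATAAA, searched on the forward strand, begins at position -32 from the start site in Il1a and at -31 in Il1b, and 8.32% of 32851 promoter windows hold that word. Neither of these 2 windows holds a match to the NF-kB consensus, searched on both strands and held by 8.46% of windows. An AP-1 word TGANTCA, which reads the same on both strands and is held by 7.81% of windows, begins at -12 in Il1a and at -141 in Il1rn. No TATAAA was in the shown window of Il1rn, and its 2 other windows held none of the 5 searched motifs. The C/EBP word TTGCNNAA (10.8% of windows, both strands) and the ISRE core (3.44%, both strands) were absent from all 3 windows shown. These matches describe letters, not binding.

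The deposited values are on a log2 scale and come from RMA, which gives the arrays a common distribution. A probe set's value is comparable between arrays. Against other genes it is read here only roughly, as high or as near the lower end of the table. Epithelial markers were high on every array, with the colonic mucin gene Muc2 at 13.50 ± 0.06 in ECP samples and 13.46 ± 0.13 in control samples (SD, n = 5 each). Array 4 of the control group stands apart in its cell markers: its means were 8.46 for 9 of 10 neutrophil markers, 8.56 for 7 of 8 B cell markers, 12.17 for 11 of 12 pancreatic acinar markers and 12.20 for 10 colonic epithelial markers. The corresponding ranges were 6.67 to 7.34, 5.96 to 7.06, 5.30 to 5.54 and 12.40 to 12.49 in the ECP samples. Control replicate 1 also had high acinar markers, at 10.34. Control replicate 5 had the lowest neutrophil level, at 6.02. In bulk tissue, fewer cells of a type and less RNA per cell cannot be told apart. Of the marker lists, smooth muscle (8 of 8), fibroblast (8 of 8) and adipocyte markers (7 of 7) were all higher in ECP samples, where 53.3% of all genes were. All of 11 acinar and 7 B cell markers were lower, with 0 past the threshold. Genes of a list are not independent, and few arrays can set these counts. Outside control replicate 4 the control B cell level was 6.08 to 6.28. Acinar levels on control replicates 2, 3 and 5 were 5.44 to 6.36. Fibroblast levels were 9.06 and 9.31 on control replicates 1 and 5, 9.71 to 9.89 on the other control arrays and 9.53 to 9.83 in ECP samples. Whether the arrays of a group stem from separate mice is not stated, and the p-values below then cover only the variation among these arrays, which may be technical.

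Between ECP and control samples no member passed the test, and the differences farthest from 0 among the members were those of Il1a and Il1b. With limma and Benjamini-Hochberg adjustment over all genes, 0 of the 9 members had an adjusted p under 0.05, as had 0 of 19505 genes (0.0%). At an unadjusted p under 0.05 there was 1 member, Il36a, against 991 genes or 5.08% of all, and it was higher in ECP samples, as were 2.31% of all genes at that level. The groups did not overlap for 0 members, against 1.22% of all genes. Of the 9 members 5 were higher in ECP samples, where 53.3% of all genes were. The gene nearest to the threshold among all genes, the cyclin gene Ccna2, is no member (difference -0.58, limma adjusted p = 0.0686). Members were at adjusted p-values of 0.957 or higher.

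**Figure D1:**
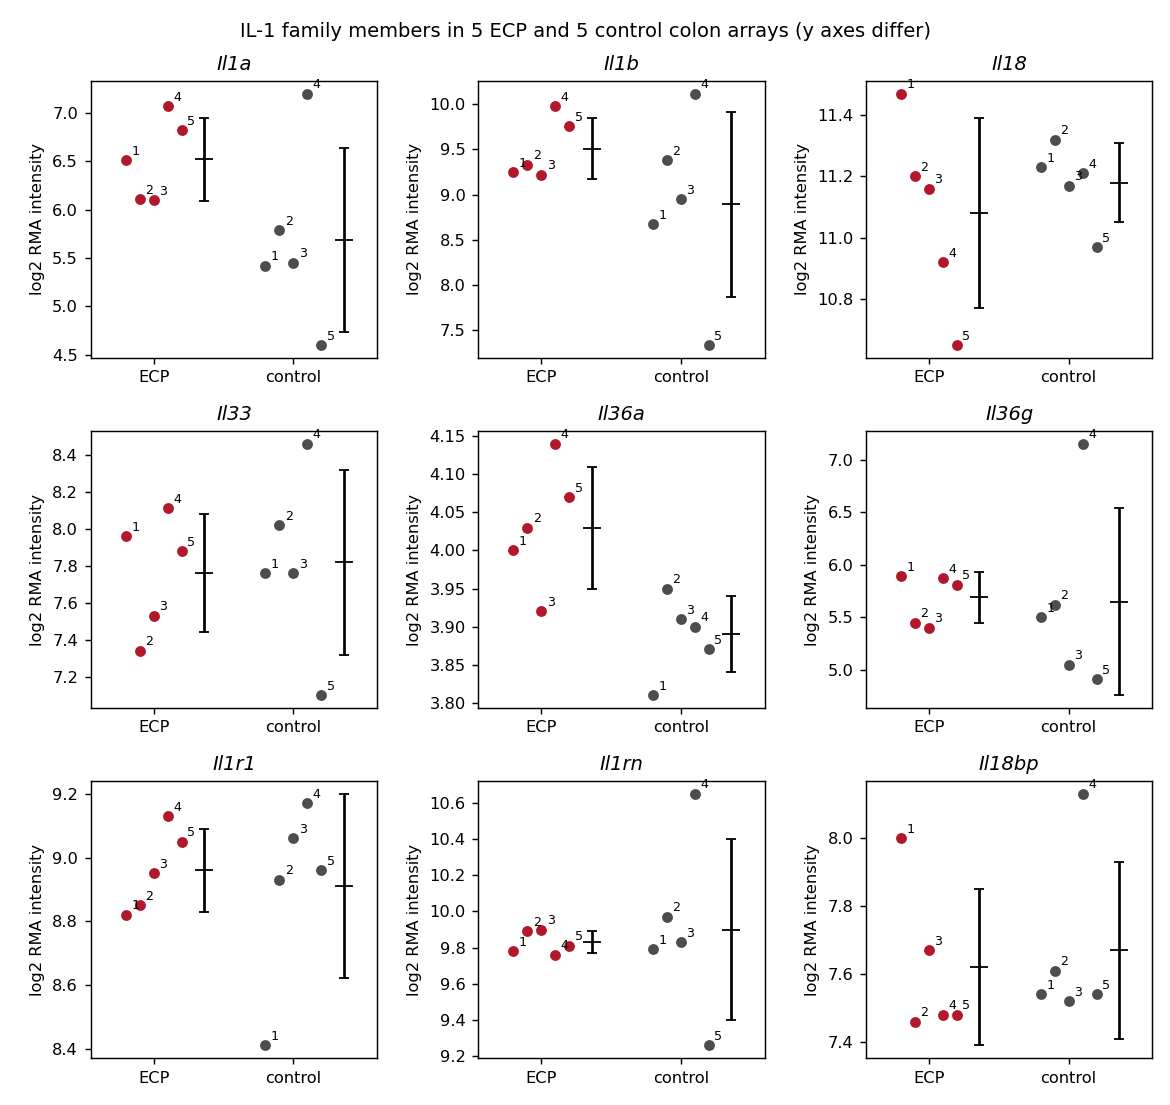
Level of each measured member on every array, in log2 RMA intensity, with ECP samples on the left and control samples on the right of each panel. Points are single arrays labelled by replicate number, and bars give the mean and SD over 5 arrays. For Il1a and Il1b the ECP samples lie within the wider span of the control samples, whose ends are replicates 4 and 5.

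Il1a, which codes for the cell-associated alarm cytokine IL-1 alpha, was at 6.51, 6.11, 6.10, 7.07 and 6.82 in ECP replicates 1 to 5, against 5.42, 5.79, 5.45, 7.20 and 4.60 in control replicates 1 to 5. Each of the 5 ECP values lay above 4 of the 5 control values, and control replicate 4 was above them all. The mean was 6.52 ± 0.43 in ECP samples and 5.69 ± 0.95 in control samples (SD, n = 5 each), a difference of 0.83 on the log2 scale (SE 0.39, 95% interval -0.01 to 1.68), or 1.78-fold in intensity. In the limma fit its unadjusted p was 0.0535 and its adjusted p 0.988.

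Il1b, which codes for the secreted pyrogenic cytokine IL-1 beta, was at 9.25, 9.33, 9.22, 9.98 and 9.76 in ECP replicates 1 to 5, against 8.67, 9.38, 8.95, 10.12 and 7.33 in control replicates 1 to 5. Here control replicates 2 and 4 reached into or above the ECP values, and control replicate 5 lay far below them. The difference was 0.62 (SE 0.40, 95% interval -0.26 to 1.50, limma adjusted p = 0.998), or 1.54-fold. Control replicate 5 carried much of it: without that array the difference was 0.23 for Il1b and 0.56 for Il1a, and without control replicate 4 it was 0.93 and 1.21. Leaving out both of these arrays, an alternative chosen after seeing the data, gave 0.51 for Il1b (limma unadjusted p = 0.0305, adjusted p = 0.799) and 0.97 for Il1a (unadjusted p = 0.00108, adjusted p = 0.484).

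Neutrophils are a known source of IL-1, and their marker level was set beside these genes. The level of 9 of 10 listed neutrophil markers (Ly6g was not measured) was between 6.67 and 7.34 in ECP samples and between 6.02 and 8.46 in control samples, and the group means differed by 0.01 (SE 0.43). With that level as a covariate the Il1a difference was 0.82 (limma unadjusted p = 0.000254, adjusted p = 0.143) and the Il1b difference 0.61 (unadjusted p = 0.0316, adjusted p = 0.702). Neither passed the threshold over all genes. Since the marker level hardly differed between the groups, the covariate could not move the size of these differences much, and the part of neutrophils in them was not tested by it. With the pancreatic acinar level as a covariate the differences were 1.35 for Il1a (limma adjusted p = 0.687) and 1.00 for Il1b (adjusted p = 0.976). That level was 5.30 to 5.54 in ECP samples and 5.44 to 12.17 in control samples. Its slope thus rests almost wholly on the control samples, above all on replicates 1 and 4. These values cannot be read as differences corrected for pancreatic tissue.

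The IL-36 cytokines act on epithelial and other barrier cells. Il36a was at 4.00, 4.03, 3.92, 4.14 and 4.07 in ECP replicates 1 to 5, against 3.81, 3.95, 3.91, 3.90 and 3.87 in control replicates 1 to 5. Thus 4 of 5 ECP samples were above every control sample. The difference was small, at 0.14 (SE 0.06, 1.10-fold, limma unadjusted p = 0.0438, adjusted p = 0.957), and the values lie near the lower end of the table, whose lowest value is 2.81. Detection calls were not analysed here, so it is not known whether this signal stands above background.

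Il36g, the other IL-36 agonist gene, had values of 5.89, 5.45, 5.40, 5.87 and 5.81 in ECP replicates 1 to 5 and of 5.50, 5.62, 5.05, 7.15 and 4.91 in control replicates 1 to 5. The high value of 7.15 was again on control replicate 4. The difference was 0.04 (SE 0.34, 95% interval -0.71 to 0.79, limma adjusted p = 1.0), or 0.42 without control replicate 4 and -0.14 without control replicate 5. It was 0.62 with the acinar level as a covariate (limma unadjusted p = 0.0467) and 0.49 without control replicates 1 and 4 (unadjusted p = 0.0171), and its adjusted p was 0.659 or higher under every alternative run.

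Il18, whose product drives interferon-gamma release by lymphocytes and is made by colonic epithelium, read 11.47, 11.20, 11.16, 10.92 and 10.65 in ECP replicates 1 to 5 and 11.23, 11.32, 11.17, 11.21 and 10.97 in control replicates 1 to 5. Unlike most members it spread more among ECP samples (SD 0.31) than among control samples (SD 0.13). Its difference was -0.10 (SE 0.13, 95% interval -0.39 to 0.19, limma adjusted p = 0.998).

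Il33, the nuclear alarmin that acts on ST2-bearing lymphoid and mast cells, read 7.96, 7.34, 7.53, 8.11 and 7.88 in ECP replicates 1 to 5 and 7.76, 8.02, 7.76, 8.46 and 7.10 in control replicates 1 to 5. The groups overlapped throughout, with both the highest and the lowest value in control samples. Its difference was -0.06 (SE 0.22, 95% interval -0.54 to 0.43, adjusted p = 1.0).

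The signalling receptor gene Il1r1 was at 8.82, 8.85, 8.95, 9.13 and 9.05 in ECP replicates 1 to 5, against 8.41, 8.93, 9.06, 9.17 and 8.96 in control replicates 1 to 5. Control replicate 1 was lowest, ECP replicates 1 and 2 lay below the other 4 control samples, and the remaining values overlapped. The difference was 0.05 (SE 0.13, 95% interval -0.23 to 0.33, limma adjusted p = 1.0). It was -0.07 without control replicate 1. In a list of 6 receptor and accessory chain genes, 5 were measured, 4 were higher in ECP samples and 1 was lower, and 0 passed the threshold. The largest of these differences was 0.18 (SE 0.11) for Il18rap, an accessory chain of the IL-18 receptor. Il1rap, the accessory chain shared by several receptors of the family, differed by 0.07 (SE 0.15), and the IL-36 receptor gene Il1rl2 by 0.10 (SE 0.16).

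Neither inhibitor member passed the test, and both differences were near 0. Il1rn, the gene of the IL-1 receptor antagonist, was at 9.78, 9.89, 9.90, 9.76 and 9.81 in ECP replicates 1 to 5, against 9.79, 9.97, 9.83, 10.65 and 9.26 in control replicates 1 to 5. The ECP samples spanned 0.14 log2 units and the control samples 1.39. The difference was -0.07 (SE 0.19, 95% interval -0.49 to 0.35, limma adjusted p = 1.0), or 0.12 without control replicate 4 and -0.23 without control replicate 5.

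Il18bp, the gene of the IL-18 binding protein, was at 8.0, 7.46, 7.67, 7.48 and 7.48 in ECP replicates 1 to 5, against 7.54, 7.61, 7.52, 8.13 and 7.54 in control replicates 1 to 5. One array in each group, ECP replicate 1 and control replicate 4, stood above the others. The difference was -0.05 (SE 0.14, 95% interval -0.35 to 0.25, limma adjusted p = 1.0). Of the inhibitor genes that are no members, the decoy receptor gene Il1r2 differed by -0.03 (SE 0.25), the IL-36 receptor antagonist gene Il36rn by -0.03 (SE 0.12) and Sigirr, which codes for an inhibitory receptor, by 0.05 (SE 0.06). Together with Il1rn and Il18bp, 1 of these 5 inhibitor genes was higher and 4 were lower in ECP samples, with a median difference of -0.03 against 0.0078 for all genes.

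**Figure D2:**
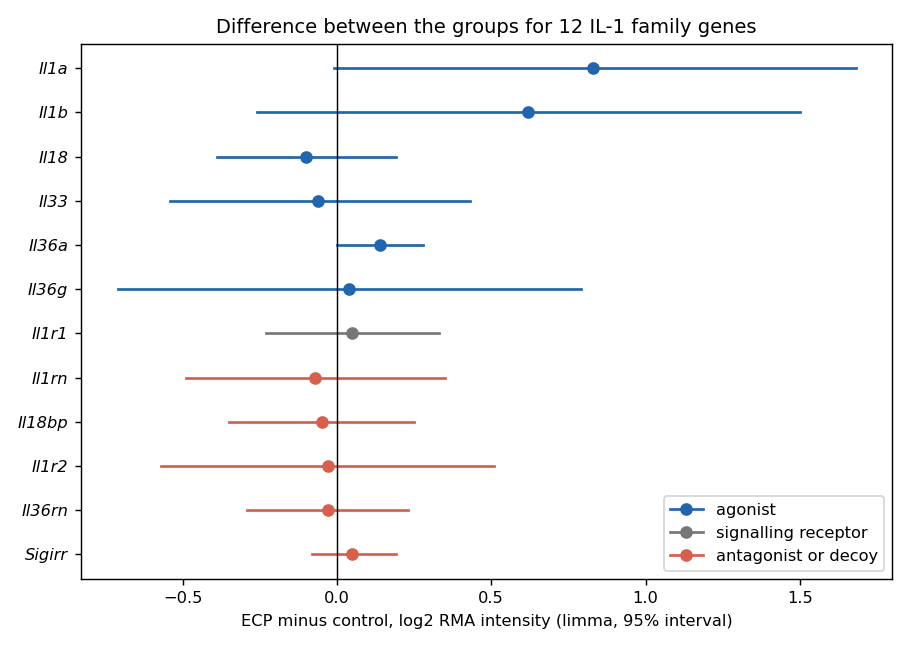
Difference between ECP and control samples for 12 IL-1 family genes, in log2 RMA intensity, as points with 95% intervals from limma. Agonists, the signalling receptor and inhibitors are coloured apart. Il1a at 0.83 and Il1b at 0.62 lie farthest from 0, and the 5 inhibitor genes lie between -0.07 and 0.05.

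Agonists were then set against inhibitors on the same array, which asks whether their ratio differed between the groups. Only the change of such a ratio between groups can be read, since its level joins different probe sets. The ratio of Il1a to Il1rn, as a log2 difference, was -3.27, -3.78, -3.80, -2.69 and -2.99 in ECP replicates 1 to 5, against -4.36, -4.18, -4.38, -3.46 and -4.66 in control replicates 1 to 5. All control samples but replicate 4 lay below every ECP sample. The ratio was higher in ECP samples by 0.90 (SE 0.30), or 1.87-fold, with an exact permutation p of 0.0238 (two-sided, 252 splits, smallest possible p 0.00794) and an adjusted p of 0.0794 over 5 ratios.

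For Il1b over Il1rn the values were -0.53, -0.56, -0.68, 0.21 and -0.05 in ECP replicates 1 to 5, against -1.12, -0.59, -0.88, -0.54 and -1.93 in control replicates 1 to 5. Control replicates 2 and 4 lay among the lower ECP values. The difference of 0.69 (SE 0.31, 1.61-fold) had an exact permutation p of 0.0476 and an adjusted p of 0.0794. For Il1b over the decoy gene Il1r2 the difference was 0.65 (SE 0.25, 1.57-fold, exact permutation p = 0.0317, adjusted p = 0.0794), with 4 of 5 ECP samples above every control sample. In each of these 3 ratios, which share genes and so are not independent, all 5 ECP samples were above the control median, and none passed the threshold after adjustment. All 5 were also above it for Il36g over Il36rn, where the groups differed by 0.07, so this count does not set the 3 ratios apart.

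In the other axes of the family Il18 over Il18bp differed by -0.05 (SE 0.15, exact permutation p = 0.69, adjusted p = 0.863), and Il36g over Il36rn by 0.07 (SE 0.48, exact permutation p = 0.952, adjusted p = 0.952). The second of these depended on control replicate 4, at 2.99 against 0.36 to 0.89 in the other control samples and 0.96 to 1.50 in the ECP samples. Without that array all 5 ECP samples lay above the 4 control samples and the difference was 0.53 (exact permutation p = 0.0159, adjusted p = 0.0298). Without it the ratios of Il1a to Il1rn (1.09), Il1b to Il1rn (0.81) and Il1b to Il1r2 (0.74) also reached an adjusted p of 0.0298. These calls were not kept under other exclusions. Leaving out 2 arrays gives fewer splits and a larger smallest possible p, so a call lost there can come from the coarser test alone. Without control replicates 1 and 4 together the 4 ratios had adjusted p-values of 0.0595 to 0.067, without control replicates 4 and 5 together of 0.0893 to 0.125, and without control replicate 5 alone the 3 ratios with Il1a or Il1b had 0.159 to 0.198, all by exact permutation. Il36rn was at 4.46 ± 0.13 in ECP samples and 4.49 ± 0.26 in control samples (SD, n = 5 each), near the lower end of the table. Without detection calls it is not known whether the Il36rn signal in the ratio of Il36g to Il36rn stands above background. The part that the pancreatic, B cell and neutrophil transcripts of control replicate 4 have in these values was not tested. The mean of the 6 agonists minus the mean of the 2 inhibitors was -1.29 ± 0.25 in ECP samples and -1.60 ± 0.22 in control samples (SD, n = 5 each), a difference of 0.31 (SE 0.15) that is given without a test. Among the agonists Il1a and Il1b differed by 0.83 and 0.62 and the others by -0.10 to 0.14. The score thus largely restates Il1a and Il1b and is no shift of the whole family.

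**Figure D3:**
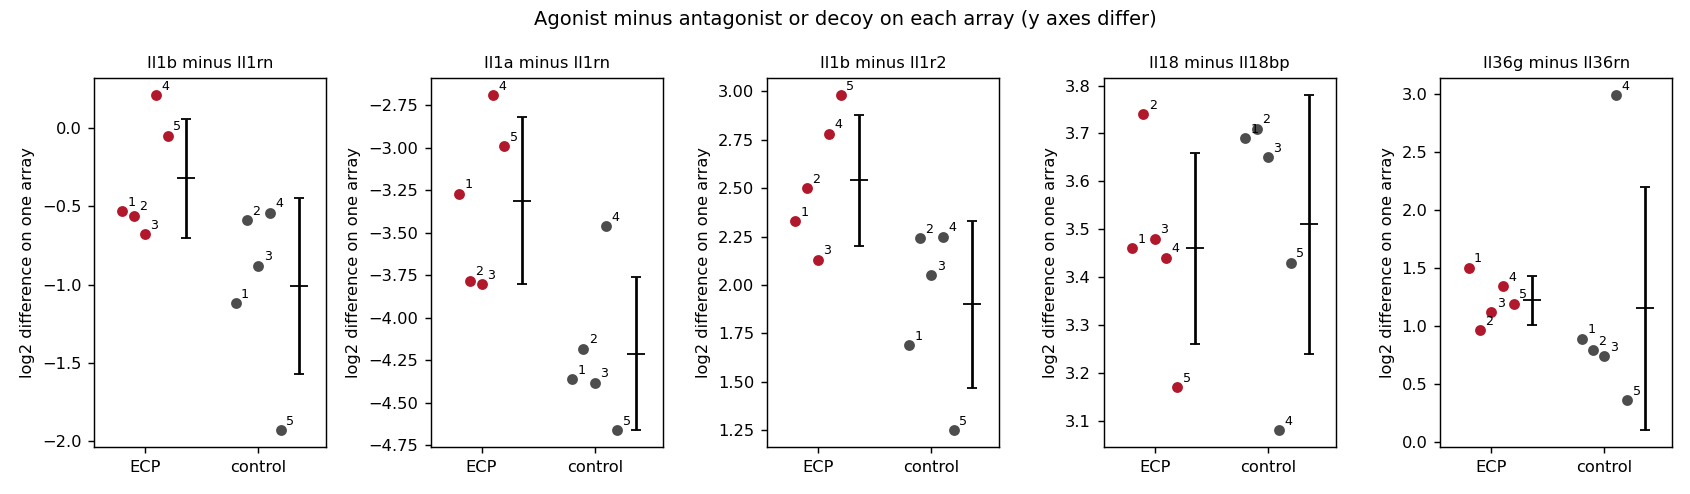
Log2 difference between an agonist and an inhibitor gene on each array, for 5 pairs, with ECP samples left of control samples. Points are arrays labelled by replicate number, and bars give the mean and SD over 5 arrays. In the 3 pairs with Il1a or Il1b and in the last pair, Il36g with Il36rn, all 5 ECP samples lie above the median of the control samples. In that last pair control replicate 4 stands at 2.99.

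The SD was larger in control samples for 7 of 9 members (77.8%), a share near the 65.8% of all genes for which this held, and it was larger in ECP samples for Il18 and Il36a. The range of Il1a was 0.97 in ECP samples and 2.60 in control samples. Control replicate 4 held the highest value of 7 members (Il1a, Il1b, Il1rn, Il1r1, Il18bp, Il33 and Il36g), as it did for 15.7% of all genes. Control replicate 5 held the lowest value of 5 members (Il1a, Il1b, Il1rn, Il33 and Il36g), as it did for 7.79% of all genes.

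Il1a and Il1b varied together across the 10 arrays. Of the 36 pairs of members 3 passed the threshold after adjustment over the pairs. Il1a with Il1b had Pearson r = 0.933 (permutation p = 2e-05, adjusted p = 0.00072) and Spearman rho = 0.915 (permutation p = 0.00054), and r was 0.903 without control replicates 4 and 5, the arrays farthest from the Il1a median. Il33 with Il36g had r = 0.832 (permutation p = 0.0026, adjusted p = 0.0365) and rho = 0.891 (permutation p = 0.00126), and r was 0.583 without the same arrays (permutation p = 0.127, adjusted p = 0.458), which did not pass. Il1a with Il36g had r = 0.810 (permutation p = 0.00304, adjusted p = 0.0365) and rho = 0.830 (permutation p = 0.0048), and r was 0.797 without them (permutation p = 0.018, adjusted p = 0.162).

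For Il1rn with Il1b the value hung on the extreme arrays. Their r was 0.751 over 10 arrays (permutation p = 0.037, adjusted p = 0.125, rho = 0.418, permutation p = 0.231) and -0.09 without control replicates 4 and 5. For Il18 the pooled r was -0.14 with Il1a (permutation p = 0.693, rho = -0.127, permutation p = 0.731) and -0.04 with Il1b (permutation p = 0.896, rho = -0.0909, permutation p = 0.811). Over the 5 arrays of each group, too few for a test, r with Il1b was -0.774 in ECP samples and 0.778 in control samples, so a pooled value near 0 does not show that these genes are unrelated.

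**Figure D4:**
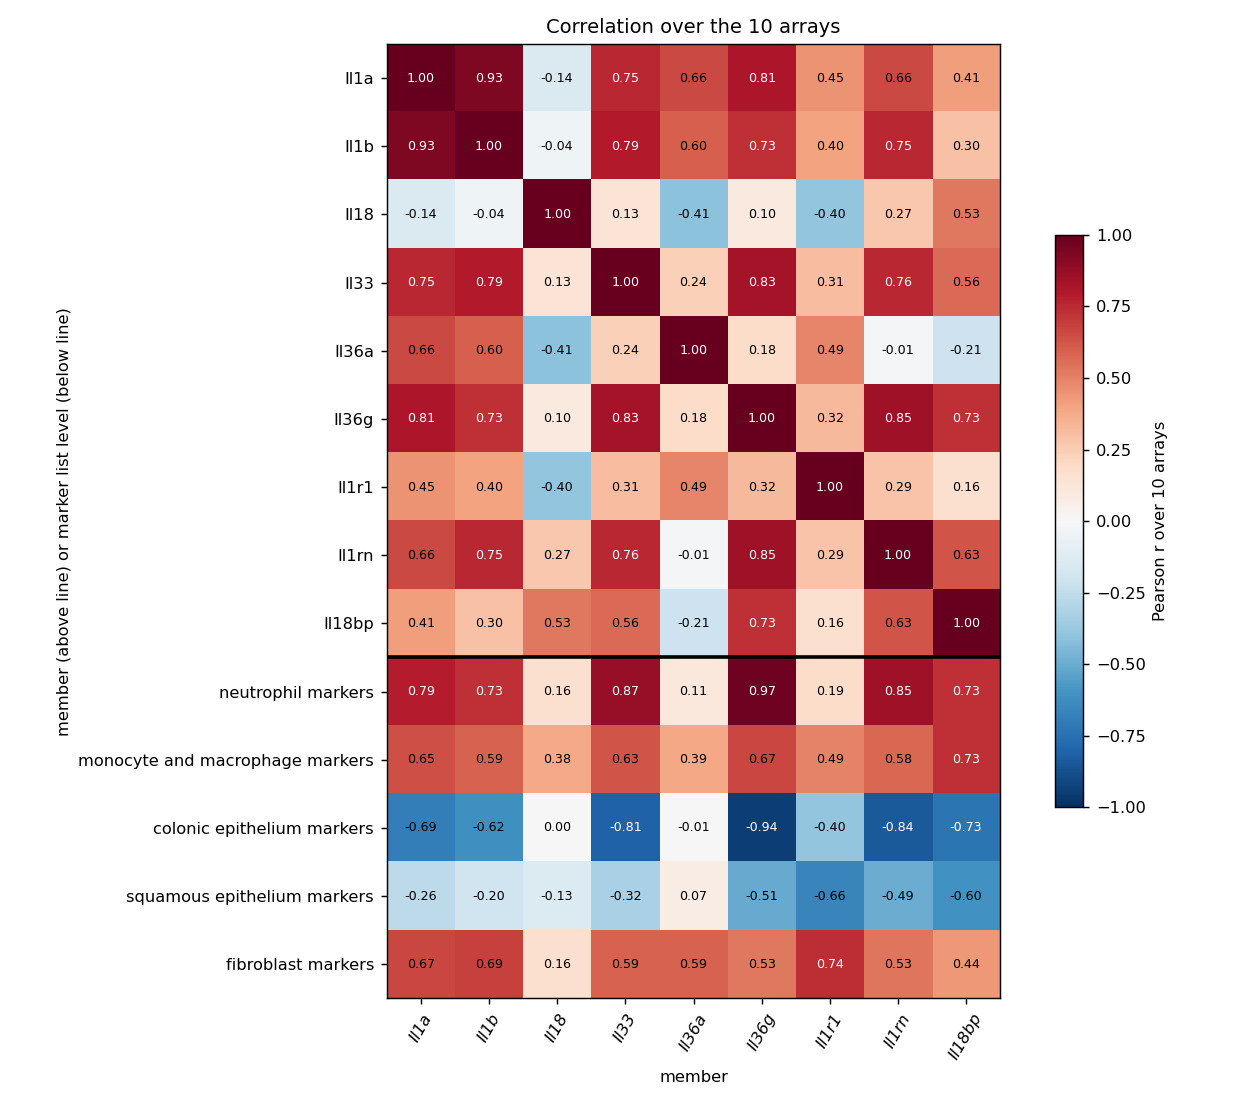
Pearson r over the 10 arrays between members (above the line) and between members and the mean level of marker lists (below the line), on a colour scale from -1 to 1. The pair of Il1a and Il1b is at 0.93, and Il36g is at 0.97 with neutrophil markers and -0.94 with colonic epithelial markers.

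Set against marker levels, 4 of 45 relations passed the threshold after adjustment. Il36g followed the neutrophil markers (r = 0.970, permutation p = 5e-05, adjusted p = 0.00225, and rho = 0.976, permutation p = 3e-05), and r was 0.859 without control replicates 4 and 5. Il33 did so with r = 0.870 (permutation p = 0.00111, adjusted p = 0.0143, and rho = 0.867, permutation p = 0.00216), but with r = 0.614 without these arrays (permutation p = 0.109). Both genes ran against the colonic epithelial markers, Il36g with r = -0.942 (permutation p = 0.00087, adjusted p = 0.0143, and rho = -0.806, permutation p = 0.00721) and Il33 with r = -0.807 (permutation p = 0.00127, adjusted p = 0.0143, and rho = -0.770, permutation p = 0.0129). These 2 were at -0.657 (permutation p = 0.0744) and -0.719 (permutation p = 0.0441) without control replicates 4 and 5. With 8 arrays 0 of the 45 relations passed after adjustment. Il1a with neutrophil markers had r = 0.787 (permutation p = 0.0059, adjusted p = 0.0531, and rho = 0.794, permutation p = 0.00895). Its r was 0.926 after each group was centred on its mean, but 0.562 without control replicates 4 and 5 (permutation p = 0.145, adjusted p = 0.403).

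**Figure D5:**
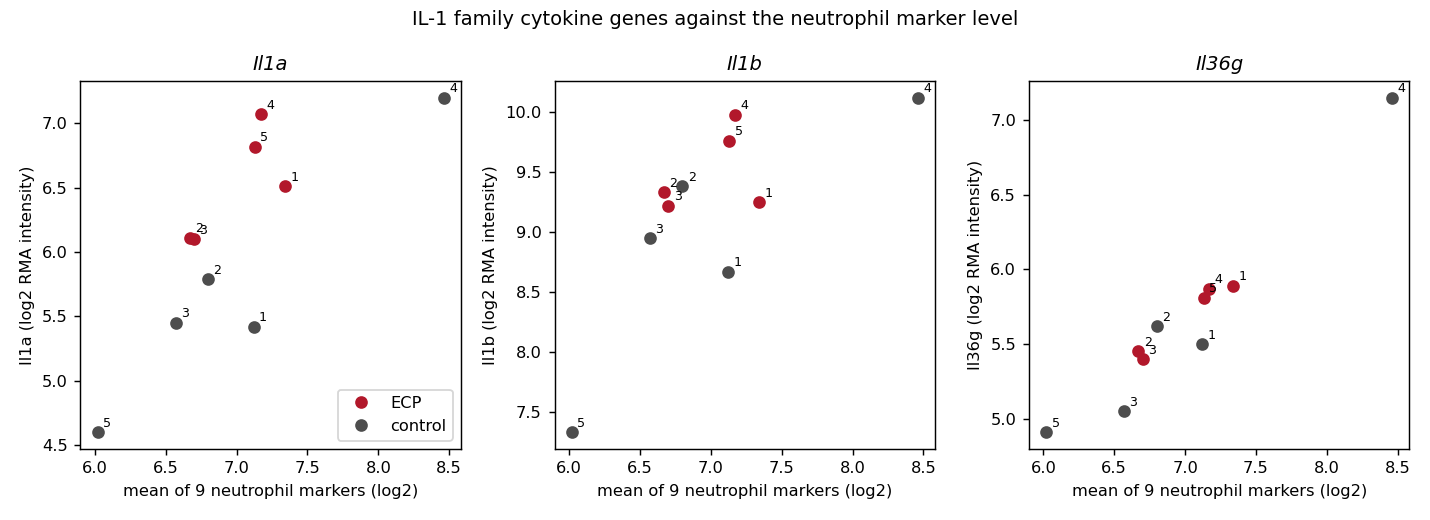
Level of Il1a, Il1b and Il36g against the mean of 9 neutrophil markers on each array, both in log2 RMA intensity, with ECP samples in red and control samples in grey, labelled by replicate number. Il36g follows the markers with r = 0.970, and for Il1a the ECP samples lie above control samples of like neutrophil level.

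Genes most like a member were sought among 9752 genes above the median level, by Pearson r over the 10 arrays and with no test. For Il1b these were Cxcl2, a chemokine that attracts neutrophils (r = 0.925), Acod1, the enzyme that makes itaconate in activated macrophages (0.913), Impact (0.911), Chl1 (0.911) and Csf3r, the neutrophil growth factor receptor gene (0.894). Cxcl2 also stands in the list of IL-1 induced genes and Csf3r in that of neutrophil markers. With the mean level of the neutrophil markers Il1b had r = 0.734 (permutation p = 0.033, adjusted p = 0.1, and rho = 0.709, permutation p = 0.0272). That relation did not pass, and its r was 0.287 without control replicates 4 and 5 (permutation p = 0.481). For Il33 they were the collagen gene Col1a1 (0.914), Heg1 (0.914), the growth factor binding protein gene Igfbp4 (0.910), the histamine-forming enzyme gene Hdc (0.909) and Pabpn1 (0.898). Col1a1 also stands in the list of fibroblast markers. With the mean level of that list Il33 had r = 0.592 (permutation p = 0.0722, adjusted p = 0.144, and rho = 0.782, permutation p = 0.0108), which did not pass. For Il18 they were Ccdc93 (0.935), the matrix gene Thbs4 (0.915), Hoxb13 (0.897), Litaf (0.896) and Ccdc115 (0.895). Hoxb13, a Hox gene of the posterior body axis, ranged from 5.96 to 8.51 between arrays, and its ECP minus control difference was -0.75.

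Downstream of the receptors, genes that IL-1 induces in stromal and epithelial cells did not pass the test. All 20 listed genes were measured, 14 were higher and 6 lower in ECP samples, where 53.3% of all genes were higher, and 0 passed the threshold. The median difference was 0.13 against 0.0078 for all genes, and the mean level of the list differed by 0.19 (SE 0.22). Much of this lay with control replicate 5, where the list level was 7.19. It was 7.66 to 8.43 in the other control samples and 7.80 to 8.16 in ECP samples. Ptgs2, which codes for the inducible prostaglandin synthase COX-2, was at 8.44, 8.64, 8.41, 9.51 and 9.08 in ECP replicates 1 to 5, against 7.73, 8.12, 8.07, 8.85 and 7.55 in control replicates 1 to 5. Control replicate 4 alone reached into the ECP range. The difference was 0.75 (SE 0.26, limma unadjusted p = 0.0136, adjusted p = 0.807). The collagenase gene Mmp13 differed by 0.63 (SE 0.27, adjusted p = 0.95), and Csf2, which codes for the myeloid growth factor GM-CSF, by -0.20 (SE 0.11, adjusted p = 0.998). These genes also respond to other NF-kB stimuli.

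No signalling or processing gene passed the test. Of 14 listed signalling genes 11 were measured, 5 were higher and 6 lower, and the mean level was 8.77 ± 0.02 in ECP samples and 8.75 ± 0.09 in control samples (SD, n = 5 each). Tab1, a partner of the kinase TAK1, differed by 0.17 (SE 0.07, limma unadjusted p = 0.0275, adjusted p = 0.939), Irak3, an inhibitory kinase homologue of the pathway, by 0.17 (SE 0.13) and Irak2 by 0.08 (SE 0.08). Of 16 genes for inflammasome parts and proteases that release or cut the cytokines 11 were higher and 5 lower, with a median difference of 0.02. Among them the sensor gene Nlrp6 differed by 0.14 (SE 0.08), Nlrc4 by 0.12 (SE 0.09) and the granzyme gene Gzmb by 0.24 (SE 0.19). Of 7 listed targets of IL-33 and IL-18 6 were measured, 4 were higher and 2 lower. Ifng, a target of IL-18 in lymphocytes, differed by 0.22 (SE 0.11, adjusted p = 0.996), and Il5, a target of IL-33, by -0.16 (SE 0.13, adjusted p = 0.998). In these 3 lists 0 genes passed the threshold. Of the 8 ligand genes of the family 4 were higher and 4 lower, with the remaining agonist gene Il36b at -0.21 (SE 0.10, adjusted p = 0.991) and Il1f10, the gene of the less studied IL-38, at -0.05 (SE 0.10).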

How the data were processed

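Total RNA of complete colon tissue was measured on single-colour arrays, 5 ECP and 5 control samples, grouped by their titles. The deposited log2 values were summarised per probe set by RMA in oligo (submitters' processing notes). RMA options were not given in the sources used here. Of 22203 probe sets 19572 had 1 gene symbol. The probe set with the highest mean was kept, leaving 19505 genes, of which 55 had several probe sets and none of the members did. Symbols were updated through RefSeq synonyms for 4 list genes. Array medians were 6.94 to 6.98. The number of arrays limits the precision.

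Genes were compared with limma 3.58.1 in R 4.3.3 (lmFit, eBayes, two-sided, no covariate, no filter), tested beforehand on simulated data, with p-values adjusted by Benjamini-Hochberg across the 19505 genes and called under 0.05. Ratios of agonist to inhibitor were compared by exact permutation of the arrays, and correlations by 100000 permutations. The planned ratio of Il33 to Il1rl1 was not run, since Il1rl1 was not analysed. The members, 7 pathway and 12 marker lists and the tests were chosen with earlier results of these data known. Named are all members, the inhibitor genes Il36rn, Il1r2 and Sigirr, up to 3 other genes with the smallest p in each pathway list, the 5 genes most like Il1b, Il18 and Il33, and the gene with the smallest adjusted p. Muc2 was added as a marker of the tissue. Alternatives were 2 renewed normalisations, a filter on dim genes, the mean of probe sets, other variance models, array weights, a replicate block, 2 covariates and arrays left out.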

Additional observations from a re-analysis of the deposited data

Results flagged for a closer look

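Single arrays were looked for whose distance to the nearest other array exceeded 0.71 of their group's span. Among 58 sets of 5 values there were 7, and about 2.9 (1 in 20) would arise by chance. The sets share arrays and genes and are not independent, so the 7 cannot be read as an excess. Of the 7, 5 fell on control replicate 4, with high values in Il18bp (8.13, next 7.61), in the ratio of Il36g to Il36rn (2.99, next 0.89), in T and NK cell markers (6.99, next 6.15) and in B cell markers (8.56, next 6.28), and a low value in colonic epithelial markers (12.20, next 12.44). Adipocyte markers were low on ECP replicate 2 (6.24, next 7.13) and on control replicate 5 (5.80, next 6.63), the array that also had the lowest Il1a and Il1b values.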

How the results depend on the processing

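No member passed the threshold under any alternative run, with adjusted p-values of 0.143 or higher for Il1a and 0.702 or higher for Il1b. Their differences stayed positive throughout, from 0.56 to 1.35 for Il1a and from 0.23 to 1.00 for Il1b. Without the lowest quartile of genes, with trend and robust options, or without control replicate 3, 1 gene of all passed in place of 0. Leaving out single arrays gave 0 to 1 gene past the threshold and 4 to 8 members higher in ECP samples, in place of 5. The number of higher members was 8 with the acinar level as a covariate. Under alternatives other than leaving out a single array, Il1rn, Il1r1, Il18bp and Il33, and the decoy gene Il1r2, which is no member, changed sign. With the acinar covariate Il1rn was at 0.193, Il18bp at 0.111, Il33 at 0.169 and Il1r2 at 0.302. Without control replicates 1 and 4 Il1rn was at 0.142, Il1r1 at -0.024, Il18bp at 0.062, Il33 at 0.138 and Il1r2 at 0.257. Without control replicates 4 and 5 Il18bp was at 0.061. With array weights Il1rn was at 0.037, Il33 at 0.004 and Il1r2 at 0.125. Il18, Il36g and Il36rn, the last of which is no member, changed sign only when a single array was left out. The cause was not tested.

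Leaving out single arrays gave -0.230 to 0.117 for Il1rn, -0.071 to 0.119 for Il1r1, -0.198 to 0.006 for Il18, -0.145 to 0.065 for Il18bp, -0.237 to 0.104 for Il33, -0.144 to 0.417 for Il36g, -0.114 to 0.054 for Il36rn and -0.254 to 0.190 for Il1r2. The ratios ran from 0.748 to 1.089 for Il1a to Il1rn, 0.461 to 0.809 for Il1b to Il1rn, 0.484 to 0.750 for Il1b to Il1r2, -0.161 to 0.020 for Il18 to Il18bp and -0.129 to 0.530 for Il36g to Il36rn. The first 3 and the last had an adjusted p of 0.0298 without control replicate 4, by exact permutation. The mean of agonists minus inhibitors ran from 0.218 to 0.374. Correlations past the threshold numbered 6 between members after each group was centred, in place of 3, and 0 with marker levels without the 2 arrays farthest from the median, in place of 4.

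Deviations of same-numbered arrays correlated from -0.244 to 0.0761, so the values show no pairing by replicate number. Whether the design paired them is not stated, and these correlations cannot tell. With the number as a replicate block 0 genes and 0 members passed. Pairing cannot change the size of the ratio differences, since every array has a partner, and bears only on the p-values. The differences were 0.690 for Il1b to Il1rn, 0.902 for Il1a to Il1rn and 0.647 for Il1b to Il1r2. Each of these had an exact paired permutation p of 0.0625, the smallest that 5 pairs can give. The differences were -0.053 for Il18 to Il18bp and 0.070 for Il36g to Il36rn.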
